A study of Mus musculus with 12 samples.

Results

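Gata6+Itga6- cells were set against Gata6+Itga6+ cells, 3 exon arrays each and thus 6 of the 12 arrays of the series, chosen by what the sample labels say was sorted. Both populations came from the back skin epidermis of female Gata6-mTomato reporter mice on a mixed C57BL6 and CBA background, in telogen, when hair follicles rest. Gata6+Itga6- cells fluoresced red but lacked integrin alpha 6 at the sort, and Gata6+Itga6+ cells had both. The other 6 arrays, of CD34+ cells and of remaining basal cells (both Itga6+ without the reporter), entered the fit and are given as context. The mice were matched for age and sex. Their age, and whether a replicate pooled several animals, are not given in the sources used here. The labels call the replicates biological without naming animals, so p-values measure the spread between these samples. The reporter marks cells in which Gata6 was active and does not by itself place a cell in a compartment of the skin.

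Keratinocytes are born in the basal layer, where integrins and hemidesmosomes hold them to the basement membrane and where cell division takes place. On leaving it they lose these attachments, stop dividing, exchange basal for suprabasal keratins, and then build desmosomes, tight junctions, barrier lipids and a cornified envelope crosslinked by transglutaminases. Gata6, a zinc-finger transcription factor, is known in mouse skin from the upper hair follicle, where the junctional zone and the sebaceous duct lie. Integrin alpha 6, with its partner integrin beta 4, is the laminin receptor of the hemidesmosome. A gate on it parts Gata6+ cells with this chain from those without it, and attachment itself was not measured. The comparison asks which genes differ between Gata6+ cells on either side of this gate.

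Levels are given as log2(intensity + 1), and a gene's level is the median over its probe sets. A gene was called at a limma adjusted p under 0.05 over all 17853 genes. The level of silent genes, 2.46, was taken from olfactory and vomeronasal receptor genes. Where the lower mean was under it, the fold was counted from it and is given as a bound (at least). The arrays were not equally bright: the upper quartile of intensity was 13.2 to 15.5 on Gata6+Itga6- arrays and 15.7 to 16.6 on Gata6+Itga6+ arrays. Among 2650 genes with a mean level over 4, the median log2 change was −0.28 as deposited, −0.03 once genes were quantile normalized anew, and 0.03 when array brightness entered as a covariate. Small falls of bright genes therefore stand near a shift shared by the array. Arrays of Gata6+Itga6- cells correlated with each other at r = 0.948 to 0.949 across genes, those of Gata6+Itga6+ cells at 0.943 to 0.957, and arrays of one population with those of the other at 0.894 to 0.924; genes are not independent replicates.

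In all, 567 genes were called, which is 3.18% of those tested. Of these, 208 rose and 359 fell in Gata6+Itga6- cells, or 1.17% and 2.01% of all genes. A fitted change of at least 2-fold was reached by 432 of them (2.42% of all genes). Counts of list members below are to be read beside these shares of all genes. The share of higher among called genes was 36.7%, against 47.9% (312 higher and 339 lower) once genes were quantile normalized anew. When array brightness entered as a covariate it was 49.6% (185 and 188). In each of the 567 the 3 arrays of one population did not overlap the 3 of the other, so no called gene named below overlaps. Of all genes, 19.4% did not overlap, 6.52% being higher and 12.8% lower. The call held in every fit that left out 1 of the 12 arrays for 88 of the 208 higher and 138 of the 359 lower genes. Without Gata6+Itga6- replicate 1 or 3 the count was 325 or 304, and without Gata6+Itga6+ replicate 2 or 3 it was 373 or 285. With 3 arrays a side, the array number limits the precision of what follows.

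**Figure D1:**
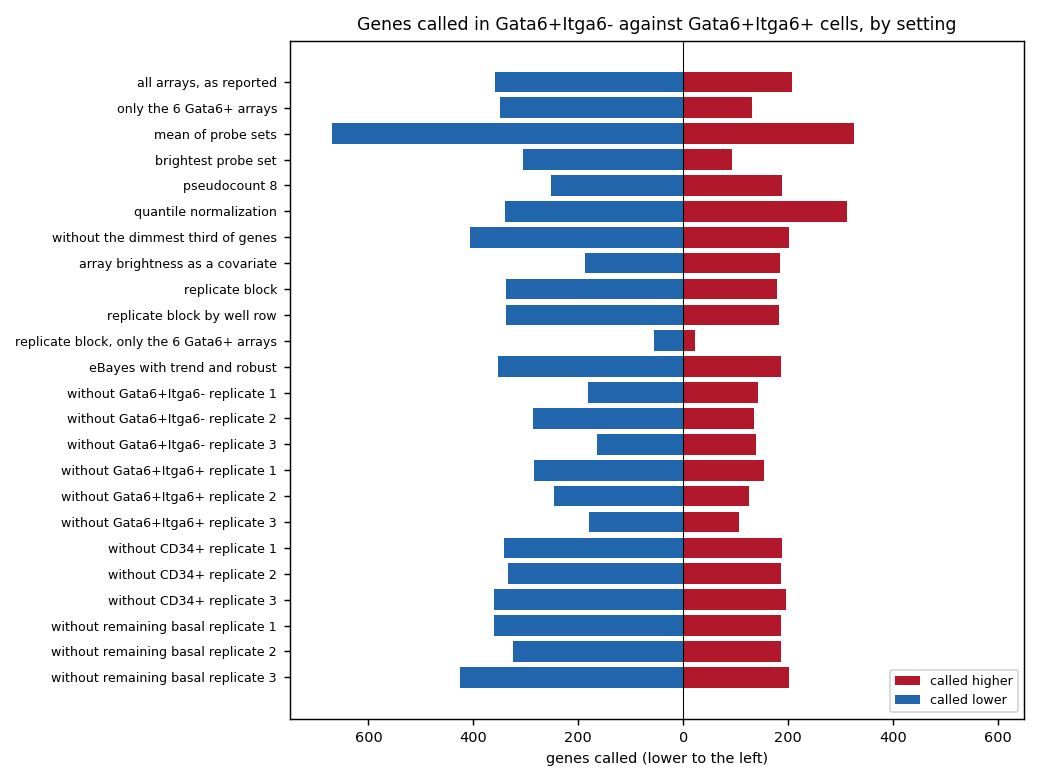
Number of genes called higher (red, to the right) and lower (blue, to the left) in Gata6+Itga6- against Gata6+Itga6+ cells, 1 row per setting of the analysis, the uppermost being the one reported. Leaving out a CD34+ or remaining basal array keeps between 510 and 626 calls, leaving out a Gata6+ array between 285 and 439, and the mean in place of the median of probe sets gives the most, 995.

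**Figure D2:**
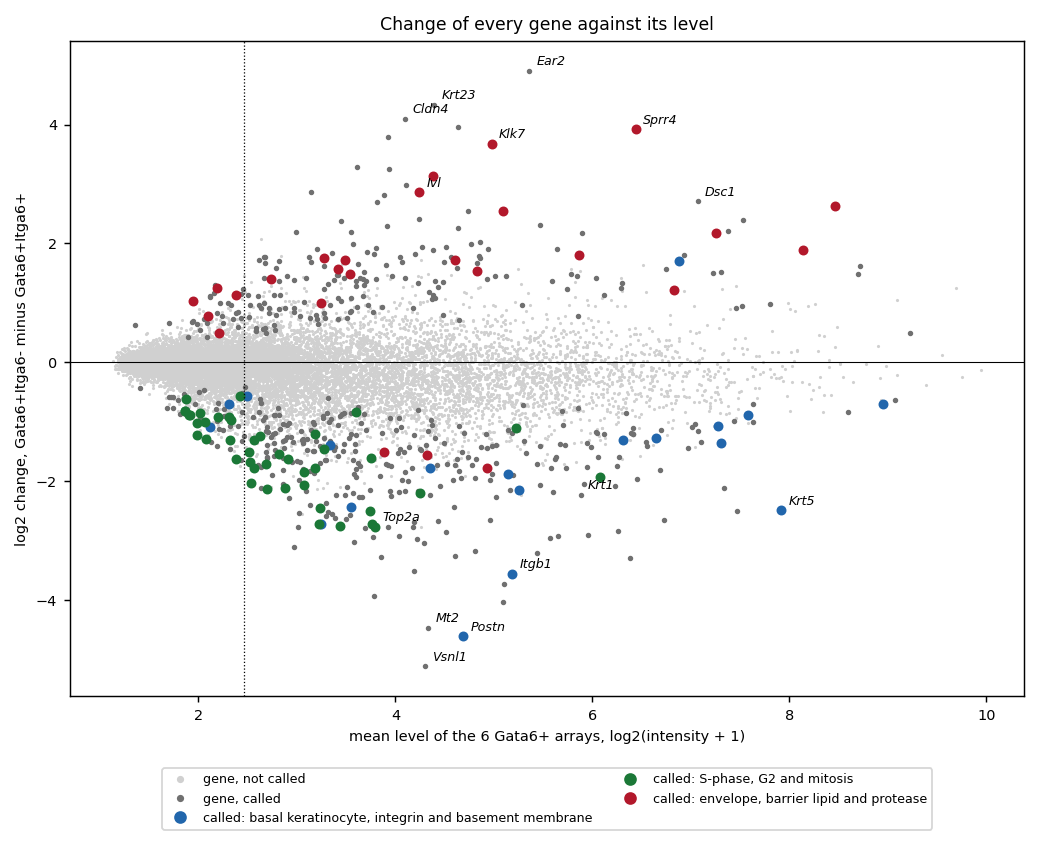
Log2 change of every measured gene (Gata6+Itga6- minus Gata6+Itga6+ cells, vertical axis) against its mean log2(intensity + 1) over the 6 Gata6+ arrays, with called genes in dark grey and called members of 3 groups of lists in colour. The dotted line marks the level of silent genes, 2.46; called cell cycle genes all lie below a change of 0, called envelope, barrier lipid and protease genes mostly above it, and the ends of the range are Ear2 at 4.91 and Vsnl1 at −5.12.

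The genes used for the sort were read first, as a check of the labels and not as a finding. Gata6 stood at 5.84, 5.89 and 5.80 in Gata6+Itga6- cells, against 4.79, 4.21 and 4.18 in Gata6+Itga6+ cells and means of 2.84 in CD34+ and 2.73 in remaining basal cells. Itga6 stood at 5.76, 6.36 and 5.94 in Gata6+Itga6- cells, against 7.14, 7.41 and 7.31 in Gata6+Itga6+ cells (a log2 change of −1.27, SE 0.26; limma adjusted p = 0.0268). This call was lost in 5 of the 12 fits (up to 0.102, without Gata6+Itga6- replicate 1) that left out 1 array. Here and below, the bracket after such a count holds the highest adjusted p and the array left out. Its transcript was 2.41-fold lower in the population gated without the protein, and stayed above the level of silent genes on every array. Cd34 lay under that level in both Gata6+ populations, at 2.11, 1.75 and 2.02 in Gata6+Itga6- cells, against 1.83, 1.94 and 1.55 in Gata6+Itga6+ cells. The keratinocyte keratins described below were bright in Gata6+Itga6- cells. Defining genes of fibroblasts (Col3a1, Dcn), melanocytes (Dct) and endothelium (Pecam1) were under the level of silent genes in both populations. Other genes of these cell types did lie over it in a Gata6+ population: Mfap5 of fibroblasts, Mlana, Mitf and Sox10 of melanocytes, and Egfl7 of endothelium.

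The largest rises in Gata6+Itga6- cells included genes of the outer epidermal layers and of secreted or surface proteins. Ear2, an eosinophil-associated ribonuclease, stood at 7.91, 7.81 and 7.72 in Gata6+Itga6- cells, against 2.90, 4.30 and 1.51 in Gata6+Itga6+ cells (30.1-fold higher; limma adjusted p = 0.000797). It was read from 1 probe set, and it belongs to a family of closely similar genes whose signal could be shared. Krt23, a type I keratin, was at 6.70, 6.32 and 6.66 in Gata6+Itga6- cells, against 2.42, 2.04 and 2.21 in Gata6+Itga6+ cells (at least 17.1-fold; adjusted p = 5.75e-07), with no overlap and a population SD under 0.3 on each side. Cyp2b19, a keratinocyte cytochrome P450 that oxidizes arachidonic acid, was 15.6-fold higher, Fcamr, an Fc receptor for IgA and IgM, at least 10.3-fold, and the endoribonuclease Endou at least 6.92-fold. Gdpd1, a phosphodiesterase of glycerophospholipids, was at least 8.54-fold higher, the membrane mucin Muc15 7.91-fold and the transporter Slc46a2 at least 4.32-fold. The other 7 of the 15 largest rises (Cldn4, Sprr4, Klk7, Klk10, Ivl, Gsdma and Dsc1) are described further below. Limma adjusted p-values of the 15 ran from 5.75e-07 for Krt23 to 0.00411 for Muc15, and each was also called in all 12 fits that left out 1 array.

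Most of the 15 genes with the largest falls were also well above the level of silent genes in both other Itga6+ populations. Vsnl1, a neuronal calcium sensor, stood at 1.62, 1.58 and 2.02 in Gata6+Itga6- cells, under the level of silent genes, against 6.43, 7.02 and 7.12 in Gata6+Itga6+ cells (at least 21.1-fold lower; limma adjusted p = 9.91e-05), with 5.83 in CD34+ and 4.14 in remaining basal cells. Ctnnal1, a relative of alpha-catenin, was at least 9.79-fold lower, Ackr4, a receptor that scavenges chemokines, 13.2-fold, and Cdh13, a cadherin tied to the membrane by a lipid anchor, at least 11.2-fold. Ifitm3, a membrane protein that restricts virus entry, was at 4.87, 5.46 and 3.87 in Gata6+Itga6- cells, against 8.29, 7.86 and 7.94 in Gata6+Itga6+ cells (9.85-fold lower). The secreted protease Htra1 was at least 8.18-fold lower, Ccdc3 9.56-fold, and Aspn, a small proteoglycan, at least 4.18-fold. Aspn averaged 6.49 in CD34+ cells and 1.95 in remaining basal cells, so it was not a gene of all Itga6+ cells. Siva1, which promotes apoptosis, was 8.20-fold lower (adjusted p = 0.0439) and lost its call in 8 of the 12 fits (up to 0.166, without Gata6+Itga6+ replicate 3) that left out 1 array. Each of the other 14 was called in all 12 of these fits.

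**Figure D3:**
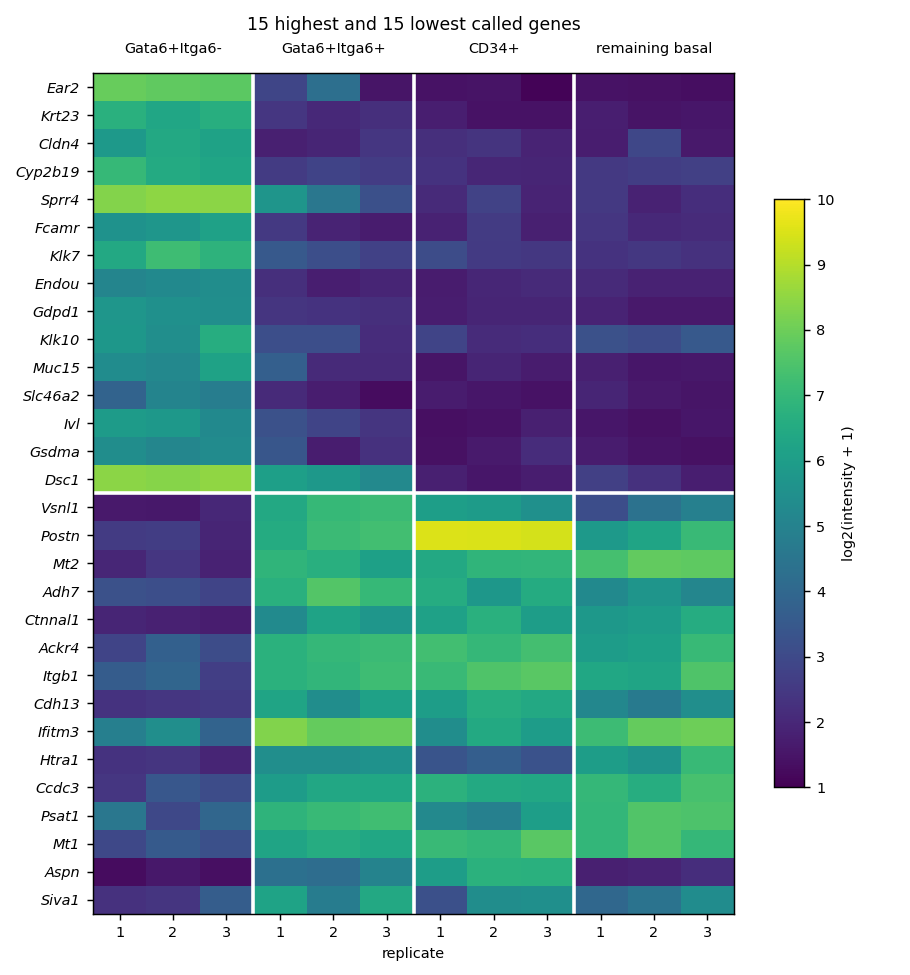
Log2(intensity + 1) of the 15 largest called rises (upper block) and the 15 largest called falls (lower block), 1 row per gene and 1 column per array, with 3 replicates of each population. The upper block is bright in the Gata6+Itga6- columns, with Dsc1 and Sprr4 at middle levels in Gata6+Itga6+ cells, and in the lower block the Gata6+Itga6- columns have the lowest mean of the 4 populations for all 15 genes.

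Many genes of basal keratinocytes were lower in Gata6+Itga6- cells, while their basal keratins stayed bright. Of 25 measured basal keratins and regulators, 10 were called lower and 1 higher, against 2.01% and 1.17% of all genes, and 20 of the 25 had a log2 change below 0 (median −0.66; −0.41 once quantile normalized anew). Krt5, a keratin of the basal layer, stood at 6.72, 6.96 and 6.34 in Gata6+Itga6- cells, against 9.12, 9.14 and 9.24 in Gata6+Itga6+ cells (5.63-fold lower; log2 change −2.49, SE 0.17, limma adjusted p = 5.68e-05). Its partner Krt14 fell far less, to 8.55, 8.68 and 8.58 in Gata6+Itga6- cells, against 9.29, 9.42 and 9.21 in Gata6+Itga6+ cells (log2 change −0.70, SE 0.12, adjusted p = 0.011). Krt15, a further keratin of basal and bulge cells, did not pass the test, at 9.67, 9.74 and 9.48 in Gata6+Itga6- cells, against 9.90, 9.96 and 9.77 in Gata6+Itga6+ cells (adjusted p = 0.346). Of these keratins Krt5 alone fell by more than 2-fold. Krt17, a keratin of the follicle and of activated epidermis, was the exception in direction: 7.69, 8.09 and 7.41 in Gata6+Itga6- cells, against 6.54, 5.87 and 5.68 in Gata6+Itga6+ cells, and 3.25-fold higher.

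Regulators of basal cells were among the falls. Myc, a transcription factor of growth, stood at 4.18, 4.72 and 3.63 in Gata6+Itga6- cells, against 6.12, 6.66 and 6.19 in Gata6+Itga6+ cells (4.42-fold lower; limma adjusted p = 0.0093). Trp63, the p53 relative that basal keratinocytes depend on, was at 6.84, 7.06 and 5.97 in Gata6+Itga6- cells, against 8.37, 7.90 and 7.67 in Gata6+Itga6+ cells (log2 change −1.36, SE 0.31, adjusted p = 0.0414). Klf5, a zinc-finger factor of dividing epithelium, had a log2 change of −1.31, SE 0.26 (adjusted p = 0.0268). Ly6a, the surface antigen Sca-1 of interfollicular and infundibular cells, was at 1.75, 2.47 and 1.41 in Gata6+Itga6- cells, against 4.73, 4.51 and 4.57 in Gata6+Itga6+ cells (at least 4.41-fold lower). When 1 array was left out, the call was lost for Trp63 in 10 of the 12 fits (up to 0.134, without Gata6+Itga6+ replicate 1), for Klf5 in 5 of the 12 fits (up to 0.0989, without Gata6+Itga6+ replicate 3) and for Krt17 without Gata6+Itga6+ replicate 3 (0.0551). Krt5, Krt14, Myc and Ly6a were called in all 12.

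**Figure D4:**
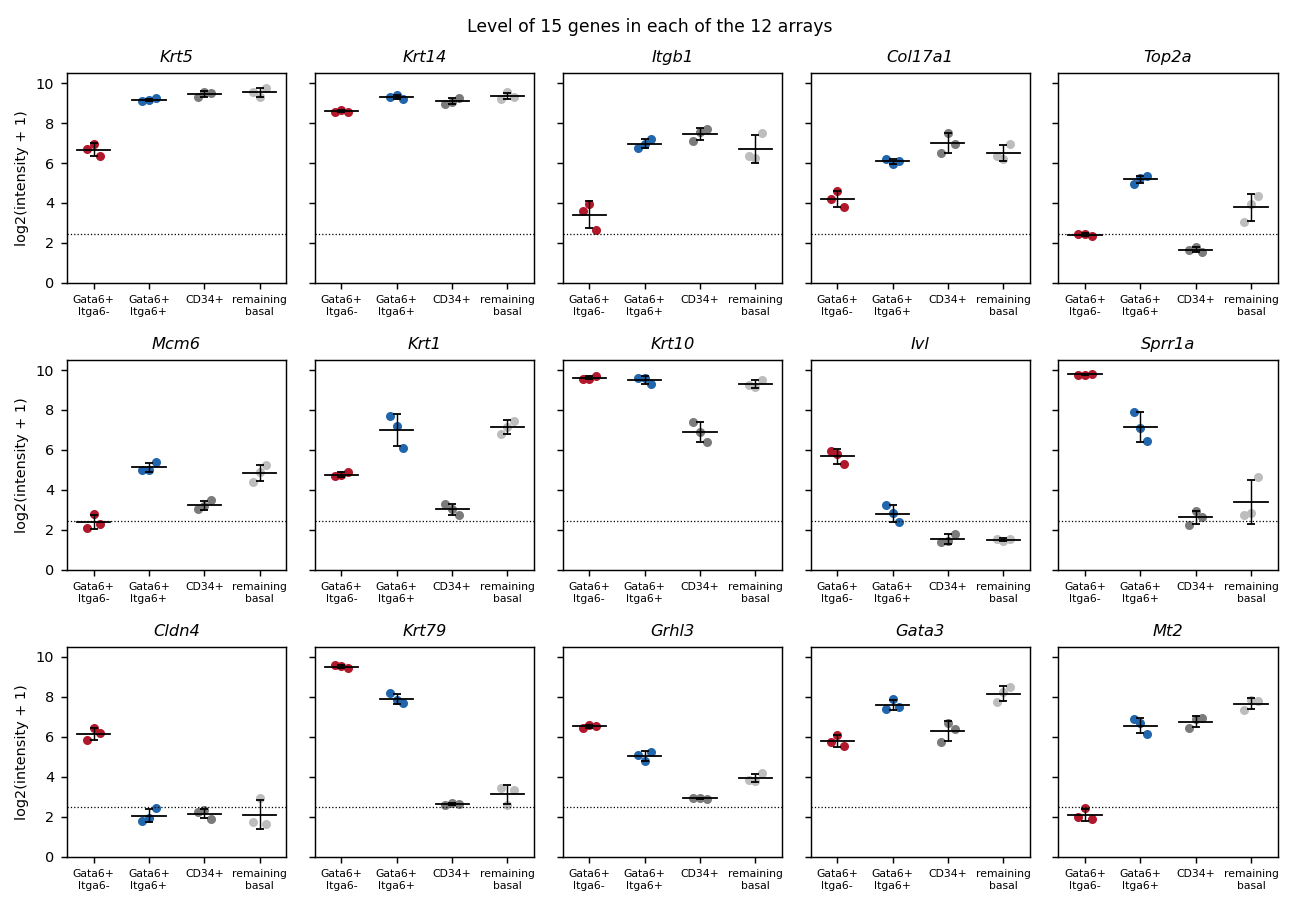
Log2(intensity + 1) of 15 genes in the 4 populations, 1 point per array, with the mean as a horizontal bar and the SD (n = 3) as whiskers; the dotted line is the level of silent genes. Krt5, Itgb1, Col17a1, Top2a, Mcm6, Krt1, Gata3 and Mt2 are lower and Ivl, Sprr1a, Cldn4, Krt79 and Grhl3 higher in Gata6+Itga6- cells without overlap, Krt14 is lower by a small step, and Krt10 overlaps.

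Receptors and ligands of attachment to the basement membrane were among the falls in Gata6+Itga6- cells. Of 15 measured integrin chains 4 were called lower and none higher (1 at an unadjusted p under 0.05), and of 25 hemidesmosome and basement membrane genes 6 were called lower and none higher (0 at that p). Both counts include the sort gene Itga6, so neither is independent of the sort, and Itgb4 too is counted in both. Itgb1, the beta 1 chain shared by many integrins, stood at 3.62, 3.94 and 2.66 in Gata6+Itga6- cells, against 6.76, 6.93 and 7.20 in Gata6+Itga6+ cells (11.8-fold lower; limma adjusted p = 0.000891). Itgb4, the partner of Itga6, was at 3.32, 3.77 and 3.30 in Gata6+Itga6- cells, against 5.21, 5.28 and 5.24 in Gata6+Itga6+ cells (3.44-fold lower; adjusted p = 0.0163). Col17a1, the transmembrane collagen of the hemidesmosome, was at 4.20, 4.60 and 3.80 in Gata6+Itga6- cells, against 6.21, 5.97 and 6.09 in Gata6+Itga6+ cells (3.70-fold lower; adjusted p = 0.00652).

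Laminins, ligands of these receptors, were among the falls. Lamb3, a laminin chain of the epidermal basement membrane, was at 2.31, 2.40 and 2.28 in Gata6+Itga6- cells, against 5.04, 4.32 and 4.95 in Gata6+Itga6+ cells (at least 4.95-fold lower; limma adjusted p = 0.000241). Lama3, another such chain, was 2.63-fold lower, and Lama5, a laminin chain of the wider basement membrane, had a log2 change of −0.56. The cytoplasmic linkers Dst and Plec, which tie hemidesmosomes to keratins, did not pass the test. Dst was at 4.09, 4.21 and 4.31 in Gata6+Itga6- cells, against 4.34, 5.14 and 5.39 in Gata6+Itga6+ cells, and Plec at 3.57, 3.86 and 3.18 and 3.83, 3.89 and 3.90 in the same order. Col7a1, the anchoring fibril collagen, was not called either (log2 change −0.64, SE 0.18, adjusted p = 0.11), nor was the integrin Itga3 (−1.36, SE 0.35, adjusted p = 0.0743). Leaving out 1 array ended the call of Itgb4 in 4 of the 12 fits (up to 0.0669, without Gata6+Itga6- replicate 3) and that of Lama5 in 11 of the 12 fits (up to 0.131, without Gata6+Itga6- replicate 2). Without Gata6+Itga6- replicate 1 or 3, or Gata6+Itga6+ replicate 2 or 3, 3 of the 6 hemidesmosome genes were called, and 1 to 2 of the 4 integrin chains.

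Among 34 matrix and matricellular proteins 6 were called lower and none higher (0 at an unadjusted p under 0.05). Postn, a matricellular protein that binds integrins, stood at 2.58, 2.65 and 1.92 in Gata6+Itga6- cells, against 6.53, 7.14 and 7.29 in Gata6+Itga6+ cells (at least 23.1-fold lower; limma adjusted p = 5.68e-05), and its mean was 9.49 in CD34+ cells. Ccn1 and Ccn2, matricellular targets of mechanical signalling, were at least 4.51-fold and 3.31-fold lower. Smoc2, a calcium-binding matricellular protein, was 3.82-fold lower, Thbs2, a thrombospondin, 2.67-fold, and Ltbp1, which stores latent TGF-beta in the matrix, at least 3.12-fold. Tns1, a tensin that links integrins to actin, was at 2.24, 2.29 and 2.30 in Gata6+Itga6- cells, against 4.23, 4.25 and 5.07 in Gata6+Itga6+ cells (at least 4.16-fold lower; adjusted p = 0.00251). It was 1 of 3 focal adhesion genes called lower of 26, with the tensins Tns4 and Tns3. Thbs2 lost its call in 5 of the 12 fits (up to 0.101, without Gata6+Itga6+ replicate 3) that left out 1 array, Tns4 in 4 of the 12 fits (up to 0.0708, without Gata6+Itga6- replicate 3) and Tns3 in 8 of the 12 fits (up to 0.126, without Gata6+Itga6- replicate 3).

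Cell cycle genes were called lower in Gata6+Itga6- cells in large number. Of 69 measured genes of G2, mitosis and cytokinesis, 28 were called lower and none higher (51 and 0 at an unadjusted p under 0.05), and 67 had a log2 change below 0 (median −0.85). Of 49 genes of S-phase and replication, 15 were called lower and none higher (31 and 0 at that p), and 45 lay below 0 (median −0.80). After another quantile normalization the medians were −0.79 and −0.69. Top2a, the topoisomerase of dividing cells, stood at 2.45, 2.44 and 2.33 in Gata6+Itga6- cells, against 4.97, 5.23 and 5.34 in Gata6+Itga6+ cells (at least 6.58-fold lower; limma adjusted p = 0.0005). Mki67, the proliferation marker, was at 2.18, 2.00 and 2.00 in Gata6+Itga6- cells, against 4.27, 5.15 and 5.04 in Gata6+Itga6+ cells (at least 5.11-fold lower; adjusted p = 0.00103). On both genes remaining basal cells lay between, at 3.78 for Top2a and 3.76 for Mki67, and CD34+ cells under the level of silent genes, at 1.67 and 1.94.

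Called genes came from several stages of the cycle. Mcm6, Mcm3 and Mcm4, subunits of the replicative helicase, were at least 6.33-fold, at least 3.13-fold and at least 2.88-fold lower. Mcm6 stood at 2.10, 2.78 and 2.31 in Gata6+Itga6- cells, against 5.01, 4.97 and 5.39 in Gata6+Itga6+ cells (limma adjusted p = 0.000241). Gins2, a partner of the helicase, was 4.60-fold lower, Hells, a chromatin remodeller of replication, at least 2.77-fold, and Uhrf1, which carries DNA methylation over to the new strand, 5.64-fold. In mitosis, the condensin subunit Smc2 was at least 4.00-fold lower, the checkpoint protein Mad2l1 at least 4.36-fold, the cytokinesis scaffold Anln at least 2.47-fold and the kinetochore protein Cenpk at least 2.12-fold. Ccnb2, a cyclin of mitosis, was not called, at 2.76, 2.64 and 2.02 in Gata6+Itga6- cells, against 4.48, 3.99 and 3.13 in Gata6+Itga6+ cells (adjusted p = 0.0798). E2f1, a factor that drives S-phase genes, stayed near the level of silent genes, at 2.09, 2.20 and 2.16 in Gata6+Itga6- cells, against 2.54, 2.37 and 1.86 in Gata6+Itga6+ cells. In sorted bulk samples, here and below, fewer cells of a kind and less RNA per cell cannot be told apart. Without Gata6+Itga6- replicate 1 or 3 or Gata6+Itga6+ replicate 3, 16 to 17 mitosis and 7 to 8 S-phase genes were called lower, 48 and 27 with probe sets averaged, and 16 and 9 when array brightness entered as a covariate. The call of Uhrf1 was lost in 4 of the 12 fits (up to 0.113, without Gata6+Itga6+ replicate 3) that left out 1 array, and that of Mad2l1 in 4 of the 12 fits (up to 0.0901, without Gata6+Itga6+ replicate 3). For Hells this happened in 3 of the 12 fits (up to 0.0655, without Gata6+Itga6+ replicate 3) and for Cenpk in 9 of the 12 fits (up to 0.141, without Gata6+Itga6+ replicate 3).

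Promoters of such genes are known to carry E2F sites in S-phase genes, and CCAAT boxes with CHR elements (cell cycle genes homology region) in genes of G2 and mitosis. The 250 bases before the start of 3 of the genes with large falls are shown as examples, from RefSeq on build GRCm38.p6, read on the minus strand, with matches in capitals (for Top2a and Mki67 the CCAAT box and TTTGAA, for Mcm6 the CCAAT box and TTTNNCGC, on either strand).
Top2a, chr11:99024190-99024439: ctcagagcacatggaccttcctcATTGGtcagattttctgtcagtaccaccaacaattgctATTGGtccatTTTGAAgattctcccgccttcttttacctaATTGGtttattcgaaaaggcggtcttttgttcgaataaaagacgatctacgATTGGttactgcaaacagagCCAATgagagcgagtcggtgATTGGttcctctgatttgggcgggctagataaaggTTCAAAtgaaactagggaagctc
Mki67, chr7:135716380-135716629: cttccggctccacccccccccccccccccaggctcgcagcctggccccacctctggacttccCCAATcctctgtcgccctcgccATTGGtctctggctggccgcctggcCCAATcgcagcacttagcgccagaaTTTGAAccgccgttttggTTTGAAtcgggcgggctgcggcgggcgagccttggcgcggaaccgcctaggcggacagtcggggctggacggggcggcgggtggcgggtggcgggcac
Mcm6, chr1:128359706-128359955: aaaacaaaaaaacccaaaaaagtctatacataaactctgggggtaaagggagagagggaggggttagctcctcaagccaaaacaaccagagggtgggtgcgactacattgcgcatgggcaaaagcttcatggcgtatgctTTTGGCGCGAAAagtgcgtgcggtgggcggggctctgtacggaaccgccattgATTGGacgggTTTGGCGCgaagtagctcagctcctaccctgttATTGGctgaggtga
Windows of 300 bases (these 250 and the 50 after the start) were found for 23 of the 28 called mitosis genes, with 25 starts. The CCAAT box was found in 68.0% of them and TTTGAA in 68.0%, against 37.3% and 14.5% of 17777 windows of all measured genes. Of 17 windows of called S-phase genes (12 of 15 genes), TTTNNCGC was found in 64.7%, against 6.65% of all windows. Of 38 windows of mitosis genes that were not called, the CCAAT box was found in a larger share, 76.3%, and TTTGAA in 63.2%. Of 33 windows of uncalled S-phase genes TTTNNCGC was found in 30.3%. These shares depended on the window. Over the 250 bases before the start alone TTTGAA was in 28.0% of called and 42.1% of uncalled mitosis windows, against 13.1% of all windows. For the CCAAT box these shares were 68.0%, 68.4% and 34.5%. Over the same 250 bases TTTNNCGC was in 47.1% of called and 12.1% of uncalled S-phase windows, against 5.52% of all windows. Motifs were counted on both strands and independently of each other, so matches of different motifs may overlap; a match is a run of letters and not evidence of binding.

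Genes of cell growth beside the cycle were called too. Ccnd2, a D cyclin that drives G1, stood at 6.63, 6.42 and 5.79 in Gata6+Itga6- cells, against 8.30, 8.48 and 8.40 in Gata6+Itga6+ cells (4.33-fold lower; limma adjusted p = 0.00339), and Ccnd1 was 3.44-fold lower. Cdkn1a, the inhibitor p21, was the one called rise among 28 cyclin-dependent kinase inhibitors, pocket proteins and D cyclins: 7.87, 8.11 and 7.78 in Gata6+Itga6- cells, against 7.26, 6.83 and 6.93 in Gata6+Itga6+ cells (log2 change 0.91, SE 0.19, adjusted p = 0.0327). Cdkn1b, the inhibitor p27, did not pass the test, at 3.79, 4.50 and 3.91 in Gata6+Itga6- cells, against 4.20, 4.34 and 4.95 in Gata6+Itga6+ cells. Of 22 ribosomal protein genes 4 were called lower (Rps3, Rps6, Rps9 and Rps14; list median −0.83), and of 36 ribosome biogenesis genes 5 (Gnl3, Nop56, Dkc1, Nop14 and Mrto4; median −0.71), with none higher in either (12 and 16 lower and 0 higher at an unadjusted p under 0.05). These medians were −0.69 and −0.48 once quantile normalized anew, and −0.59 and −0.37 when array brightness entered as a covariate, with 1 call in each list. With the brightest probe set no biogenesis gene was called. These counts changed with single arrays: 1 ribosomal protein gene was called without Gata6+Itga6- replicate 1 or 3 or Gata6+Itga6+ replicate 1 or 3 and 2 without Gata6+Itga6+ replicate 2. No biogenesis gene was called without Gata6+Itga6- replicate 3 or Gata6+Itga6+ replicate 3. Ccnd1 lost its call in 4 of the 12 fits (up to 0.0724, without Gata6+Itga6+ replicate 3) that left out 1 array, and Cdkn1a in 5 of the 12 fits (up to 0.118, without Gata6+Itga6+ replicate 3).

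Suprabasal keratins gave mixed values, with 3 of 16 suprabasal and upper follicle keratins called higher and 1 lower. The one that fell was Krt1, the early spinous keratin, at 4.67, 4.73 and 4.90 in Gata6+Itga6- cells, against 7.69, 7.19 and 6.12 in Gata6+Itga6+ cells (4.69-fold lower; limma adjusted p = 0.00725; called in all 12 fits that left out 1 array). Its usual partner Krt10 was bright in both populations and was not called, at 9.57, 9.58 and 9.69 in Gata6+Itga6- cells, against 9.60, 9.61 and 9.28 in Gata6+Itga6+ cells (adjusted p = 0.913). Krt77, a suprabasal keratin of ducts and epidermis, was at 8.41, 8.65 and 8.70 in Gata6+Itga6- cells, against 8.38, 8.40 and 8.22 in Gata6+Itga6+ cells (adjusted p = 0.769). Krt80, a keratin of differentiating epithelia, did not overlap between the populations but was not called (7.58, 7.66 and 7.47 in Gata6+Itga6- cells, against 7.05, 7.08 and 6.86 in Gata6+Itga6+ cells; adjusted p = 0.503). Krt2, of late interfollicular epidermis, lay under the level of silent genes in all arrays. The rises were Krt17, given above, Krt79 and Krt16. Krt79, a keratin of the upper follicle and sebaceous duct, stood at 9.61, 9.53 and 9.43 in Gata6+Itga6- cells, against 8.19, 7.85 and 7.68 in Gata6+Itga6+ cells (3.06-fold higher; adjusted p = 0.00347), with 2.63 in CD34+ and 3.12 in remaining basal cells. Krt16, a keratin of companion layer and stressed epidermis, was at least 1.28-fold higher and lost its call in 11 of the 12 fits (up to 0.171, without Gata6+Itga6- replicate 1) that left out 1 array.

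Several cornified envelope precursors were higher in Gata6+Itga6- cells. Of 46 measured envelope and granular genes, 8 were called higher and none lower (14 and 2 at an unadjusted p under 0.05), against 1.17% and 2.01% of all genes; 24 of the 46 lay under the level of silent genes in both populations. Sprr4, a small proline-rich envelope protein read from 1 probe set, stood at 8.33, 8.46 and 8.43 in Gata6+Itga6- cells, against 5.70, 4.56 and 3.18 in Gata6+Itga6+ cells (15.2-fold higher; limma adjusted p = 0.00293). Ivl, involucrin, an early envelope scaffold, was at 5.94, 5.80 and 5.27 in Gata6+Itga6- cells, against 3.22, 2.83 and 2.38 in Gata6+Itga6+ cells (7.26-fold higher; adjusted p = 0.000123). Sprr1a was at 9.75, 9.77 and 9.82 in Gata6+Itga6- cells, against 7.92, 7.08 and 6.44 in Gata6+Itga6+ cells (6.20-fold higher; adjusted p = 0.0194). The 3 Gata6+Itga6- arrays lay close together on Sprr1a and Sprr4, while those of Gata6+Itga6+ cells spread over more than 1 log2 unit.

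The most abundant late envelope protein, loricrin (Lor), was at 4.75, 3.56 and 4.73 in Gata6+Itga6- cells, against 2.79, 2.46 and 2.63 in Gata6+Itga6+ cells (3.30-fold higher; limma adjusted p = 0.0354), where it lay near the level of silent genes. Tgm1, the transglutaminase that crosslinks the envelope, stood at 3.60, 3.55 and 3.59 in Gata6+Itga6- cells, against 1.98, 2.25 and 1.77 in Gata6+Itga6+ cells (at least 2.17-fold higher; adjusted p = 0.000104), and was the only transglutaminase called of 9; Tgm3 lay under the level of silent genes. Pglyrp3 and Pglyrp4, peptidoglycan recognition proteins encoded in the same chromosomal cluster as the envelope genes, were at least 3.22-fold and 5.84-fold higher. Both are counted among the 8 called members of the list, though they are not envelope precursors. Bright members that were not called include Krtdap (7.99, 8.18 and 8.08 in Gata6+Itga6- cells, against 7.82, 7.40 and 7.45 in Gata6+Itga6+ cells) and Sbsn (9.57, 9.58 and 9.69 and 8.94, 8.13 and 8.64 in the same order), markers of spinous cells. Flg2, a filaggrin relative of the granular layer, was at 4.60, 1.94 and 4.50 in Gata6+Itga6- cells, against 1.55, 1.69 and 1.55 in Gata6+Itga6+ cells. Its Gata6+Itga6- replicate 2 stood with the Gata6+Itga6+ arrays, and the gene was not called (adjusted p = 0.0969). Lor lost its call in 5 of the 12 fits (up to 0.14, without Gata6+Itga6- replicate 3) that left out 1 array, Sprr1a in 5 of the 12 fits (up to 0.0798, without Gata6+Itga6+ replicate 3) and Pglyrp4 in 5 of the 12 fits (up to 0.0895, without Gata6+Itga6- replicate 1). Of the 8 genes, 4 to 5 were called without Gata6+Itga6- replicate 1 or 3 or any one Gata6+Itga6+ array.

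AP-1 sites, bound by Jun and Fos proteins, are known in the promoters of involucrin and other envelope genes. The 250 bases before the start of 2 of the called genes are given as examples, from RefSeq on build GRCm38.p6, read on the minus strand, with TGANTCA in capitals.
Ivl, chr3:92573736-92573985: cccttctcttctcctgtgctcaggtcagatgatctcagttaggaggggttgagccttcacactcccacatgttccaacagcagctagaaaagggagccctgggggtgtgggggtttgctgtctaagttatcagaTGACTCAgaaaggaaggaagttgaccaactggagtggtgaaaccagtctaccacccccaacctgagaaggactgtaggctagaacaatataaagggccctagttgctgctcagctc
Sprr1a, chr3:92485882-92486131: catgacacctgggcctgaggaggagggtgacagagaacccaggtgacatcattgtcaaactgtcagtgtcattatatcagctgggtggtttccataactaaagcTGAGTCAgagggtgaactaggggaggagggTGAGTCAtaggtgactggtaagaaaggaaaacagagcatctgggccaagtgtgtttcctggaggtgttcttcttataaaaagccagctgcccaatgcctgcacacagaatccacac
TGANTCA, which reads the same on both strands, was found in 4 of 6 windows of 300 bases of called members of the envelope list. It was in 47.2% of 36 windows of list members that were not called, and in 6.85% of windows of all measured genes. Over all genes called higher (195 windows) it was in 9.74%, and over all called lower (364 windows) in 5.77%. AGATAA, letters of a GATA site, was in 11.8% of windows of genes called higher, 5.77% of those called lower and 9.01% of all windows. AACCGGTT, letters of a grainyhead-like site, was in 0 of the 195 windows, 2 of the 364 and 0.174% of all windows. The transcripts of Jun and Fos were not called: Jun had a log2 change of 0.17, SE 0.36 (limma adjusted p = 0.923), and Fos was at 3.94, 2.93 and 1.89 in Gata6+Itga6- cells, against 2.78, 4.78 and 3.77 in Gata6+Itga6+ cells, with overlap.

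Among 45 genes of barrier lipids 8 were called higher and 1 lower. Abca12, the transporter that loads lipids into lamellar bodies, stood at 5.56, 5.74 and 5.48 in Gata6+Itga6- cells, against 4.46, 3.94 and 3.77 in Gata6+Itga6+ cells (2.90-fold higher; limma adjusted p = 0.00755). Acer1, an alkaline ceramidase, was 3.31-fold higher, Ephx3, an epoxide hydrolase of the linoleate pathway, 2.79-fold, and Degs2, which makes phytoceramide, at least 1.97-fold. Alox12e, an epidermal lipoxygenase, was at 7.24, 7.61 and 7.47 in Gata6+Itga6- cells, against 6.10, 6.41 and 6.15 in Gata6+Itga6+ cells (2.33-fold higher; adjusted p = 0.0265). The lipoxygenases Alox12b and Aloxe3, which act in turn on ceramide-bound linoleate, lay under the level of silent genes in both populations. Elovl4, which makes very long fatty acids, was not called (log2 change 1.40, SE 0.40, adjusted p = 0.107). The one fall was Psap, the precursor of the saposins, at 3.52, 4.85 and 3.75 in Gata6+Itga6- cells, against 6.12, 5.47 and 5.86 in Gata6+Itga6+ cells (3.42-fold lower). Leaving out 1 array ended the call of Degs2 in 3 of the 12 fits (up to 0.0744, without Gata6+Itga6+ replicate 3), of Alox12e in 6 of the 12 fits (up to 0.0969, without Gata6+Itga6+ replicate 3) and that of Psap in 4 of the 12 fits (up to 0.0673, without Gata6+Itga6- replicate 3). Of the 8 rises 4 to 5 were called without Gata6+Itga6- replicate 2 or 3 or any one Gata6+Itga6+ array; with the brightest probe set alone 1 was.

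Kallikreins that shed corneocytes and inhibitors that restrain them were both among the rises, with 7 of 53 epidermal proteases and inhibitors called higher and 2 lower. Klk7, a chymotrypsin-like kallikrein that cuts corneodesmosomes, stood at 6.42, 7.22 and 6.80 in Gata6+Itga6- cells, against 3.50, 3.18 and 2.74 in Gata6+Itga6+ cells (12.8-fold higher; limma adjusted p = 5.68e-05). Klk10 was at 5.76, 5.45 and 6.62 in Gata6+Itga6- cells, against 3.15, 3.15 and 2.13 in Gata6+Itga6+ cells (8.77-fold higher), and Klk5, which activates Klk7, was 2.96-fold higher (adjusted p = 0.0262). Spink5, the inhibitor LEKTI that restrains these kallikreins, was at 8.33, 8.36 and 8.36 in Gata6+Itga6- cells, against 6.37, 6.30 and 5.83 in Gata6+Itga6+ cells (4.54-fold higher; adjusted p = 0.000834). Cst6, an inhibitor of cathepsins, was at 9.28, 8.94 and 9.04 in Gata6+Itga6- cells, against 7.87, 7.19 and 6.51 in Gata6+Itga6+ cells (3.72-fold higher; adjusted p = 0.0093). Among cathepsins, Ctsd, an aspartic protease of the lysosome, was 3.50-fold higher, whereas Ctsl, a cysteine protease, was 2.95-fold lower. Serpinb2, an inhibitor of plasminogen activators, was 2.83-fold lower. St14, the membrane protease matriptase, did not overlap between the populations but was not called (log2 change 1.26, SE 0.42, adjusted p = 0.186). Casp14 and Asprv1, proteases of the granular layer, stayed near the level of silent genes. Leaving out 1 array ended the call of Klk5 without Gata6+Itga6+ replicate 2 (0.0832) and without Gata6+Itga6+ replicate 3 (0.106) and that of Ctsd in 8 of the 12 fits (up to 0.15, without Gata6+Itga6+ replicate 3). That of Ctsl was lost in 7 of the 12 fits (up to 0.121, without Gata6+Itga6- replicate 1) and that of Serpinb2 in 5 of the 12 fits (up to 0.111, without Gata6+Itga6- replicate 3). Of the 7 rises 4 were called without Gata6+Itga6+ replicate 2 or 3.

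Junction genes were called in both directions. Dsc1, the desmosomal cadherin of the upper layers, stood at 8.43, 8.35 and 8.49 in Gata6+Itga6- cells, against 6.09, 5.81 and 5.23 in Gata6+Itga6+ cells (6.56-fold higher; limma adjusted p = 0.000357). Cdsn, corneodesmosin, was 2.78-fold higher and the plaque protein Dsp had a log2 change of 0.50, SE 0.10. Dsg2, a desmosomal cadherin of simple and basal epithelium, was 3.13-fold lower; 13 of 17 desmosome genes were not called. Dsg1a, of upper layers, was at 8.69, 8.88 and 8.71 in Gata6+Itga6- cells, against 7.88, 7.82 and 7.62 in Gata6+Itga6+ cells, and Dsg3, of basal layers, at 5.89, 6.07 and 5.47 and 7.10, 6.23 and 6.71 in the same order. Neither was called (adjusted p = 0.119 and 0.219). Cldn4, a claudin of tight junctions, stood at 5.83, 6.43 and 6.20 in Gata6+Itga6- cells, against 1.80, 1.93 and 2.41 in Gata6+Itga6+ cells (at least 12.9-fold higher; adjusted p = 0.00012). The 3 populations with Itga6 had means under the level of silent genes. Cldn4 was 1 of 4 tight junction genes called higher of 31 (none lower; 1 lower at an unadjusted p under 0.05), with Cgn (cingulin, 2.86-fold), Cldn23 (at least 1.46-fold) and Marveld2 (tricellulin, log2 change 0.72). Cldn1, the main claudin of epidermis, was bright and not called (7.34, 7.86 and 7.84 in Gata6+Itga6- cells, against 7.43, 7.41 and 7.52 in Gata6+Itga6+ cells).

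Of 16 adherens junction genes 2 were called higher and 1 lower, Cdh13, given above; with the brightest probe set 0 were called higher and 2 lower. Nectin4, a cell adhesion receptor, was 2.77-fold higher in Gata6+Itga6- cells and Afdn, which links nectins to actin, 2.21-fold higher. The classical cadherin Cdh1 was not called, at 7.22, 7.29 and 6.95 in Gata6+Itga6- cells, against 7.50, 7.51 and 7.67 in Gata6+Itga6+ cells, and neither was Cdh3, the P-cadherin of basal cells (log2 change −1.03, SE 0.25, adjusted p = 0.0628). Of 11 gap junction genes limma called none (0 at an unadjusted p under 0.05), against 3.18% of all genes. Leaving out 1 array ended the calls of Cdsn in 4 of the 12 fits (up to 0.101, without Gata6+Itga6+ replicate 3) and Dsp in 4 of the 12 fits (up to 0.113, without Gata6+Itga6+ replicate 3). Those of Dsg2 and Marveld2 were lost in 3 of the 12 fits (up to 0.078, without Gata6+Itga6+ replicate 3) and in 5 of the 12 fits (up to 0.076, without Gata6+Itga6- replicate 3). Of the 3 rises in desmosome genes 1 was called without Gata6+Itga6+ replicate 1 or 3. With the brightest probe set alone no tight junction gene was called.

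**Figure D5:**
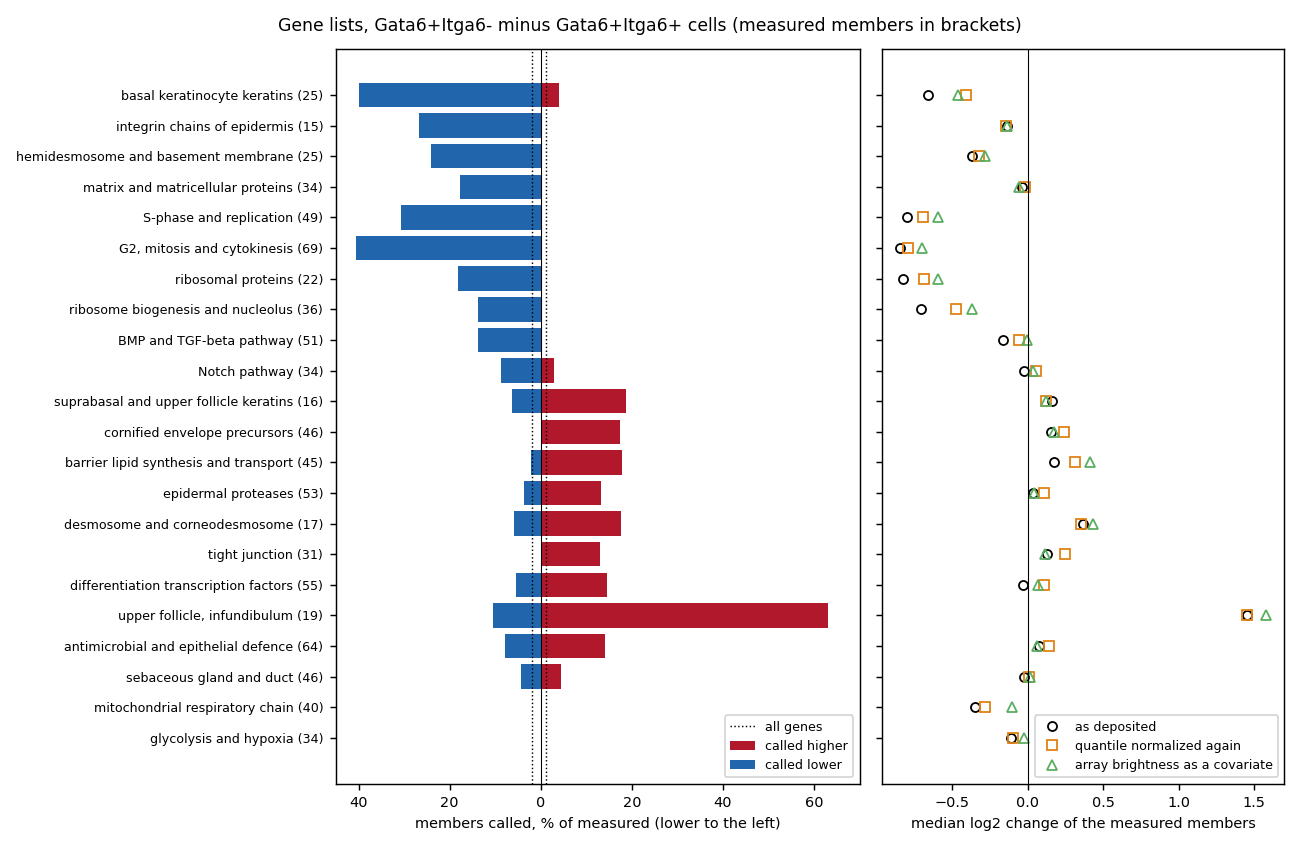
Left, share of the measured members of 22 gene lists called higher (red, to the right) or lower (blue, to the left) in Gata6+Itga6- cells, with dotted lines at the shares of all genes, 1.17% higher and 2.01% lower. Right, median log2 change of the measured members under 3 scalings; the cell cycle lists keep medians near −0.6 to −0.85 and the upper follicle list, which was put together with these arrays in view, lies at 1.45 to 1.58.

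Transcription factors of differentiation were called in both directions, 8 higher and 3 lower of 55, one of the 8 being the sort gene Gata6. Grhl3 and Grhl1, grainyhead-like factors of barrier formation, were both higher. Grhl3 stood at 6.42, 6.59 and 6.55 in Gata6+Itga6- cells, against 5.10, 4.78 and 5.24 in Gata6+Itga6+ cells (2.79-fold higher; limma adjusted p = 0.000398), and Grhl1 was 3.77-fold higher (adjusted p = 0.00789). Elf5 and Ehf, epithelial ETS factors, were at least 2.02-fold and 3.81-fold higher, and Prdm1, the repressor Blimp1 of granular and sebaceous cells, at least 1.98-fold. Nfe2l3, a relative of NRF2, was at 5.43, 6.54 and 6.04 in Gata6+Itga6- cells, against 3.55, 3.05 and 3.80 in Gata6+Itga6+ cells (5.81-fold higher; adjusted p = 0.00081).

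Another GATA factor went the other way from Gata6. Gata3, a regulator of epidermal and inner root sheath fate, was at 5.72, 6.09 and 5.54 in Gata6+Itga6- cells, against 7.39, 7.88 and 7.51 in Gata6+Itga6+ cells and 8.16 on average in remaining basal cells (3.50-fold lower than in Gata6+Itga6+ cells; limma adjusted p = 0.00694). Satb1, a chromatin organizer, was at least 3.01-fold lower and Tfap2b, an AP-2 factor, 2.51-fold. Klf4, which drives barrier formation, did not pass the test (4.31, 4.85 and 4.40 in Gata6+Itga6- cells, against 5.36, 4.24 and 4.05 in Gata6+Itga6+ cells), and neither did Zfp750, a target of Trp63 in differentiation (log2 change 1.19, SE 0.32, adjusted p = 0.0855), or Ovol1 (0.96, SE 0.33, adjusted p = 0.191). Ehf lost its call in 5 of the 12 fits (up to 0.0796, without Gata6+Itga6+ replicate 2) that left out 1 array, and 2 of the 8 genes were called with the brightest probe set alone.

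In signalling pathways most called genes were falls, among them ligands and proteins that bind them. Falls were also the larger part of all called genes (359 of 567). Of all genes, 1.17% were called higher and 2.01% lower. Of 51 genes of the BMP and TGF-beta pathway 7 were called lower and none higher (13 and 2 at an unadjusted p under 0.05). Tgfbi, an extracellular protein induced by TGF-beta, stood at 4.80, 5.47 and 4.23 in Gata6+Itga6- cells, against 7.74, 7.64 and 7.65 in Gata6+Itga6+ cells (7.19-fold lower; limma adjusted p = 0.000634). The ligand Tgfb2 was at least 2.04-fold lower, and the co-receptor Tgfbr3 at least 2.74-fold. The antagonists Grem1, which binds BMPs, and Fst, which binds activins, were at least 2.50-fold and 2.22-fold lower; Fst stayed high in both Gata6+ populations, at 6.45, 6.29 and 6.73 in Gata6+Itga6- cells, against 7.83, 7.62 and 7.49 in Gata6+Itga6+ cells. Of 34 Notch genes the ligands Jag2, Dll1 and Dlk2 were lower (at least 2.74-fold, at least 1.14-fold and 2.82-fold), and the receptor Notch3 was higher (log2 change 0.75, SE 0.17). Notch1, Jag1 and the target Hes1 did not pass the test, with log2 changes of −0.20, −0.42 and −0.12.

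Of 60 Wnt pathway genes 3 were called lower and none higher (12 and 2 at an unadjusted p under 0.05): Sostdc1, an antagonist of Wnt and BMP, 4.17-fold, its binding partner Lrp4 2.76-fold, and Lgr6, a receptor for R-spondins in the upper follicle, at least 3.07-fold. Among 36 genes of EGF and FGF signalling, Spred2, an inhibitor of Ras signalling, stood at 2.47, 3.24 and 2.83 in Gata6+Itga6- cells, against 5.52, 5.40 and 5.67 in Gata6+Itga6+ cells (6.42-fold lower; limma adjusted p = 4.48e-05), and the receptors Fgfr1 and Fgfr2 were 2.60-fold and at least 2.82-fold lower. Btc, a ligand of Egfr, was the one called rise, at 2.22, 2.59 and 2.06 in Gata6+Itga6- cells, against 1.45, 1.71 and 1.62 in Gata6+Itga6+ cells (log2 change 0.69, SE 0.14, adjusted p = 0.024), but both means lay under the level of silent genes, so no fold is given. Egfr itself was not called (4.33, 5.40 and 4.72 in Gata6+Itga6- cells, against 5.44, 5.24 and 5.76 in Gata6+Itga6+ cells). When 1 array was left out, the call of Btc was lost in 4 of the 12 fits (up to 0.0808, without Gata6+Itga6+ replicate 1). So were those of Lgr6 in 5 of the 12 fits (up to 0.0826, without Gata6+Itga6- replicate 3), of Fgfr1 without Gata6+Itga6+ replicate 3 (0.0532) and of its relative Fgfr2 in 4 of the 12 fits (up to 0.0557, without Gata6+Itga6+ replicate 2). In the pathways above the call of Notch3 was lost in 9 of the 12 fits (up to 0.147, without Gata6+Itga6- replicate 1) and that of Dlk2 in 10 of the 12 fits (up to 0.173, without Gata6+Itga6+ replicate 3). For Grem1 this held in 5 of the 12 fits (up to 0.0935, without Gata6+Itga6+ replicate 3) and for Tgfbr3 in 6 of the 12 fits (up to 0.0862, without Gata6+Itga6- replicate 3). Without any one Gata6+Itga6- array, or Gata6+Itga6+ replicate 2 or 3, 4 of the 7 genes of the BMP and TGF-beta pathway were called.

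Genes of the upper follicle, high in both Gata6+ populations, were in part higher still in Gata6+Itga6- cells. Of 19 upper follicle, infundibulum and junctional zone genes 12 were called higher and 2 lower. The list was put together knowing which genes were high in the Gata6+ arrays and includes Gata6, so its count is not independent evidence. Defb6, a beta-defensin, stood at 9.25, 9.57 and 9.50 in Gata6+Itga6- cells, against 8.49, 7.58 and 7.81 in Gata6+Itga6+ cells (2.79-fold higher; limma adjusted p = 0.0151). Crabp2, which delivers retinoic acid to its receptors, was at 8.48, 8.86 and 8.86 in Gata6+Itga6- cells, against 6.93, 6.32 and 5.74 in Gata6+Itga6+ cells (5.28-fold higher; adjusted p = 0.00616). The proton pump subunit Atp6v1c2 was 4.05-fold higher. Plet1 and Lrig1, surface markers of junctional zone stem cells, did not pass the test. Plet1 was at 8.33, 8.84 and 8.53 in Gata6+Itga6- cells, against 8.26, 7.95 and 8.18 in Gata6+Itga6+ cells, and Lrig1 at 5.19, 5.06 and 5.43 and 5.13, 5.54 and 6.03 in the same order. Leaving out 1 array ended the call of Defb6 in 4 of the 12 fits (up to 0.0654, without Gata6+Itga6+ replicate 3) and that of Atp6v1c2 in 5 of the 12 fits (up to 0.105, without Gata6+Itga6+ replicate 3). Of the 12 rises, 6 to 7 were called without Gata6+Itga6- replicate 2 or 3 or Gata6+Itga6+ replicate 2 or 3.

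Sebaceous gland genes were called in both directions. Of 46 measured, 2 were called higher and 2 lower, against 1.17% and 2.01% of all genes. Under the level of silent genes in both populations lay 26 of them, among these Pparg, Awat2, Mc5r, Elovl3 and Scd3, defining genes of sebocytes. The falls were Scd1, a fatty acid desaturase, at 3.31, 3.04 and 2.79 in Gata6+Itga6- cells, against 4.81, 4.52 and 4.96 in Gata6+Itga6+ cells (3.29-fold lower), and Far1, a fatty acyl reductase (3.09-fold lower). The rises were Prdm1 and Gpam, an acyltransferase of glycerolipid synthesis (log2 change 0.73, SE 0.16). Bulge genes were called lower for 5 of 25 (the secreted proteins Postn, Aspn, Ltbp1, Ccn2 and Fst) and higher for none (8 and 4 at an unadjusted p under 0.05). Scd1 lost its call in 8 of the 12 fits (up to 0.141, without Gata6+Itga6- replicate 3) that left out 1 array, and Gpam in 9 of the 12 fits (up to 0.128, without Gata6+Itga6- replicate 1).

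Enzymes of retinoids, sterols and xenobiotics differed in single genes. Adh7, an alcohol dehydrogenase that oxidizes retinol, stood at 3.24, 3.15 and 2.85 in Gata6+Itga6- cells, against 6.72, 7.61 and 7.02 in Gata6+Itga6+ cells (16.4-fold lower; limma adjusted p = 5.68e-05). Sdr16c6, of a dehydrogenase family that includes retinol dehydrogenases, moved the other way (4.81, 5.25 and 5.42 in Gata6+Itga6- cells, against 2.27, 2.40 and 2.71 in Gata6+Itga6+ cells; at least 6.49-fold higher; adjusted p = 3.52e-05). Rdh12, a retinal reductase, was 2.57-fold higher. Of 47 NRF2 and xenobiotic genes 1 was called higher (Cyp2b19) and 4 lower. Aldh3a1, an aldehyde dehydrogenase, was at 4.36, 5.19 and 3.97 in Gata6+Itga6- cells, against 7.22, 7.39 and 7.61 in Gata6+Itga6+ cells (7.49-fold lower; adjusted p = 0.00123), and Cbr2, a carbonyl reductase, was at least 3.80-fold lower. Ugdh, which makes UDP-glucuronate, and Ephx1, an epoxide hydrolase, were 4.46-fold and 3.03-fold lower. Of 22 cholesterol genes 2 were called higher and none lower (3 lower at an unadjusted p under 0.05); Sqle, a rate-controlling enzyme, and Stard4, a carrier of sterol, had log2 changes of 0.85, SE 0.16 and 0.93, SE 0.13. Hmgcs1, an early enzyme of the pathway, was not called with a change of −1.63 (5.43, 5.88 and 5.13 in Gata6+Itga6- cells, against 6.46, 7.38 and 7.50 in Gata6+Itga6+ cells; adjusted p = 0.0809). Leaving out 1 array ended the call of Rdh12 in 9 of the 12 fits (up to 0.12, without Gata6+Itga6+ replicate 2) and that of Ugdh in 5 of the 12 fits (up to 0.0901, without Gata6+Itga6+ replicate 3). Those of Ephx1 and Sqle were lost in 9 of the 12 fits (up to 0.13, without Gata6+Itga6+ replicate 3) and in 3 of the 12 fits (up to 0.0796, without Gata6+Itga6+ replicate 3).

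Defence genes were called in both directions, 9 of 64 higher and 5 lower. The rises were led by the Skint family, butyrophilin-like genes named for the mouse gene Skint1, which selects T cells of the epidermis: Skint8, Skint2, Skint9 and Skint10 were at least 4.55-fold, at least 3.08-fold, 4.50-fold and 3.83-fold higher. Skint9 stood at 6.75, 7.26 and 6.92 in Gata6+Itga6- cells, against 5.36, 4.49 and 4.58 in Gata6+Itga6+ cells (limma adjusted p = 0.00362), and its relatives are similar enough in sequence that their probe sets may share signal. The falls were led by S100 proteins, small calcium sensors. S100a10 was at 3.77, 5.06 and 3.74 in Gata6+Itga6- cells, against 7.42, 6.69 and 7.25 in Gata6+Itga6+ cells (7.62-fold lower; adjusted p = 0.00305), S100a6 was 5.64-fold lower and S100a13 4.79-fold. The alarmin Il33, kept in the nucleus of basal cells, was at 2.23, 1.88 and 2.03 in Gata6+Itga6- cells, against 4.41, 4.59 and 4.72 in Gata6+Itga6+ cells (at least 4.32-fold lower), and the ribonuclease Rnase4 was 4.55-fold lower. Il33 lost its call in 6 of the 12 fits (up to 0.09, without Gata6+Itga6+ replicate 3) that left out 1 array, and without Gata6+Itga6- replicate 2 5 of the 9 rises were called.

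Markers of other cell types were read in the same arrays. In the Langerhans cell and macrophage list, 1 of 16 genes was called, Epcam, which keratinocytes of the follicle also express (6.76, 6.81 and 6.65 in Gata6+Itga6- cells, against 6.07, 4.52 and 5.39 in Gata6+Itga6+ cells; limma adjusted p = 0.0477; lost in 11 of the 12 fits (up to 0.135, without Gata6+Itga6- replicate 1) that left out 1 array). The summed intensity of the list was 164.6 to 180.9 in Gata6+Itga6- cells, against 66.3 to 119.1 in Gata6+Itga6+ cells. This sum includes the bright gene Epcam, so it does not measure Langerhans cells and macrophages alone, and no sum without Epcam was made. Besides Epcam, the class II genes H2-Aa, H2-Ab1 and H2-Eb1 and the leukocyte gene Laptm5 lay over the level of silent genes in Gata6+Itga6- cells, uncalled. The defining gene Cd207 lay under it in both populations (1.91, 1.92 and 1.89 in Gata6+Itga6- cells, against 1.80, 1.69 and 1.65 in Gata6+Itga6+ cells). The T cell list summed to 31.1 to 49.4 in Gata6+Itga6- cells, against 25.9 to 30.0 in Gata6+Itga6+ cells, with Cd3e at 2.22, 2.17 and 3.80 and 2.24, 2.13 and 2.09 in the same order. The high value of Cd3e came from 1 array. Of 10 T cell genes 4 lay over the level of silent genes in Gata6+Itga6- cells, against 1 in Gata6+Itga6+ cells. The part of such cells in the rises given above was not tested. Limma called no gene of the lists for inner root sheath and hair shaft, Merkel cells, melanocytes, T cells, dermal fibroblasts, endothelium, muscle and fat, or erythrocytes. Each held 0 to 2 genes at an unadjusted p under 0.05, and of all genes 3.18% were called. Of 15 fibroblast genes 0 lay over the level of silent genes in Gata6+Itga6- cells, against 1 in Gata6+Itga6+ cells, of 13 endothelial genes 0 and 1, and of 10 melanocyte genes 1 and 3. Of 15 muscle and fat genes 6 lay over it in each of these populations, and of 22 inner root sheath and hair shaft genes 5 in each.

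Several programs held no called gene. Of all genes 3.18% were called, a share at which lists of this size hold few calls or none. Of 34 glycolysis and hypoxia genes limma called none, with 8 lower and 0 higher at an unadjusted p under 0.05, and of 40 genes of the mitochondrial respiratory chain none, with 7 lower and 0 higher. Of 31 interferon response genes it called none (1 higher at that p), and of 24 dissociation stress genes none (1 in each direction). Slc2a1, the glucose transporter GLUT1, was at 3.33, 4.31 and 3.92 in Gata6+Itga6- cells, against 4.87, 5.15 and 5.89 in Gata6+Itga6+ cells without overlap (adjusted p = 0.231). Ldha, lactate dehydrogenase, was at 3.63, 4.13 and 3.68 and 3.81, 3.73 and 3.70 in the same order. Egr1, an immediate early gene that tissue digestion induces, was at 7.71, 7.31 and 6.44 in Gata6+Itga6- cells, against 7.11, 7.65 and 7.28 in Gata6+Itga6+ cells. Secretory and calcium genes had 3 of 36 called higher and 2 lower. Among them the motor Myo5b was at least 2.07-fold higher, Calml3, a calmodulin-like protein, 2.34-fold, and Rab27a, a GTPase of secretory granules, 2.00-fold lower. A gene that was not called may still differ.

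A gene's call could also rest on which of its probe sets were read. The brightest probe set was put in place of the median for each gene. Of 171 called genes named under the rule given below, 91 then kept call and direction, 74 kept only the direction, and 6 changed sign. Sort genes were among those no longer called: Gata6 had a log2 change of 0.80 with a limma adjusted p of 0.354, and Itga6 of −0.54 with an adjusted p of 0.55. The tight junction gene Cldn4 had a log2 change of 0.83 with an adjusted p of 0.106, the keratin Krt79 of 1.21 with an adjusted p of 0.059, and Krt14 of −0.77 with an adjusted p of 0.0545. Among regulators, Gata3 had a log2 change of −1.30 with an adjusted p of 0.102, Nfe2l3 of 1.61 with an adjusted p of 0.0576 and Spred2 of −2.63 with an adjusted p of 0.144. These kept their direction. So did Jag2 (−0.0238), Degs2 (0.0072), Tgfb2 (−0.0909), Ccn2 (−0.1592) and Myo5b (0.1792), uncalled and with small changes. In contrast, Uhrf1 (0.13), Mad2l1 (0.0024), Dlk2 (0.21), Btc (−0.0628), Prdm1 (−0.29) and Gpam (−0.0551) changed sign. The brightest probe sets gave 16 calls among mitosis genes, 7 rises among upper follicle genes and 4 among defence genes. Quantile normalization ended the calls of Klf5, Lama5, Tns3, Dsp and Mrto4 among the genes named here.

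Set beside the other populations, the called genes showed the following levels, given as a description with no test, since the Gata6+Itga6+ arrays helped to choose them. Over the 208 higher genes the median of the mean levels was 4.28 in Gata6+Itga6- cells, 2.80 in Gata6+Itga6+, 2.25 in CD34+ and 2.30 in remaining basal cells, and for 140 of them the Gata6+Itga6+ mean exceeded those of CD34+ and remaining basal cells. Over the 359 lower genes it was 2.65 in Gata6+Itga6- cells, against 4.52 in Gata6+Itga6+, 4.12 in CD34+ and 4.21 in remaining basal cells. Of the higher genes 80, and of the lower 156, had their lower mean under the level of silent genes, so that their folds are bounds.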

How the data were processed

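RNA of FACS-sorted cells was amplified and hybridised to Affymetrix mouse exon arrays, per the labels' protocols. The authors deposited intensity values per probe set, made with RMA in Affymetrix Power Tools on mm9, per the submitters' processing notes; versions and scale are not given in the sources used here, and the values were read as linear. Of 235932 probe sets, 221205 had 1 gene symbol (1684 several, 13043 none), and 17853 genes remained. Levels are log2(intensity + 1). All 12 arrays were fitted in limma 3.58.1 (R 4.3.3), 1 mean per population, with Benjamini-Hochberg adjustment; the scripts were tested on simulated data. An SE is limma's moderated one. The silent level is the 95th percentile of 1144 receptor genes. Named were the sort genes, the 15 largest changes each way without overlap (predicted genes passed over), up to 6 called members of a list each way, and up to 4 known members not called. Members and all 47 lists were chosen with earlier results of these data known. Same-numbered arrays did not deviate together (r = −0.05, −0.08 and −0.02), so numbers were not used as pairs. The array names give well positions; a well column holds 1 population, so the 2 cannot be told apart. Promoter windows came from RefSeq tables (GRCm38.p6); no coordinates were moved between builds.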

Additional observations from a re-analysis of the deposited data

How the results depend on the processing

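The count of 567 called genes (208 higher, 359 lower) was 995 (325 and 670) with probe sets averaged, 373 (185 and 188) when array brightness entered as a covariate, 480 (131 and 349) with only the 6 Gata6+ arrays, and 398 (92 and 306) with the brightest probe set, of which 194 were among the 567. With 1 array left out it ranged from 285 to 626, the higher genes from 106 to 201 and the lower from 165 to 425. The replicate number as a block gave 516 (179 and 337), well rows as the block 520 (183 and 337), and the replicate block with only the 6 Gata6+ arrays 78 (23 and 55). Pseudocount 8 gave 441 and trend with robust eBayes 539. Of 171 called genes named under the rule, 165 kept call and direction after quantile normalization, 163 with the mean of probe sets, 155 with the replicate block, 132 with the brightness covariate, 45 with the block on 6 arrays and 91 with the brightest probe set. Under the brightest probe set 6 changed sign: Uhrf1 (0.13), Mad2l1 (0.0024), Dlk2 (0.21), Btc (−0.0628), Prdm1 (−0.29) and Gpam (−0.0551); the cause was not tested. Dim genes limit the folds, since 8745 genes lay under the silent level in all populations.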

Other observations

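Some small groups were put together after the values were seen, and their counts are descriptions. Metallothioneins, which bind zinc and copper, were among the largest falls. Mt2 stood at 1.98, 2.44 and 1.88 in Gata6+Itga6- cells, against 6.88, 6.69 and 6.12 in Gata6+Itga6+ cells (at least 17.2-fold lower; limma adjusted p = 1.11e-05), with means of 6.75 in CD34+ and 7.66 in remaining basal cells. Mt1 was at 2.94, 3.53 and 3.19 in Gata6+Itga6- cells, against 6.26, 6.57 and 6.36 in Gata6+Itga6+ cells (9.03-fold lower; adjusted p = 8.33e-05). Mt4, a metallothionein of stratified epithelium, was called lower too, though not without Gata6+Itga6- replicate 1 (adjusted p = 0.0556), so that 3 of 4 measured members were called and none of them higher; their sequences are similar, and probe sets may share signal.

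Gasdermins, some of which form pores in membranes, moved the other way: 3 of 8 were called higher and none lower. Gsdma stood at 5.41, 5.11 and 5.34 in Gata6+Itga6- cells, against 3.42, 1.73 and 2.28 in Gata6+Itga6+ cells (7.01-fold higher; limma adjusted p = 0.00257), and its near copies Gsdma2 and Gsdma3 were the others, whose signal may be shared; with the brightest probe set 1 of the 3 was called. In serine synthesis and one-carbon metabolism, Psat1, a transaminase of serine synthesis read from 1 probe set, was at 4.58, 2.94 and 3.98 in Gata6+Itga6- cells, against 6.84, 7.06 and 7.24 in Gata6+Itga6+ cells (9.27-fold lower; adjusted p = 0.00226). It was 1 of 2 genes called lower of 8, with Mthfd1, whose call was lost without Gata6+Itga6- replicate 3 (adjusted p = 0.0568). Of 6 enzymes of purine synthesis Ppat and Atic were called lower. Of 16 subunits of the proton pump that acidifies organelles 2 were called higher, Atp6v0a4 and Atp6v1c2, and 0 with the brightest probe set. Of 6 caveola genes Cav1 was called lower.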
